A study of Mus musculus with 8 samples.

Results

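The comparison set parental against congenic mouse embryonic stem cell lines in H3K27ac HiChIP, over all 8 libraries of the series. In HiChIP, pieces of chromatin that touch in the nucleus are ligated to each other, and an antibody then recovers those that carry a histone mark, here acetylation of lysine 27 on histone H3. A loop was a pair of anchors, which are merged 5-kb bins, on the same chromosome, and its value was the number of read pairs that linked them. Of 415681 deposited loops, 44706 reached 5 counts in 2 or more libraries and were tested. Of 30044 anchors, 21211 reached 10 counts in 2 or more libraries once the counts of every loop touching an anchor were summed.

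The parental side held line B6 5-1 of the inbred strain C57BL/6J, called B6, and line D2 5-5 of DBA/2J, called D2. The congenic side held line QJ 6-1, called B6-13D2, and line XE 2-4, called D2-13B6. B6-13D2 is B6.D2-(rs30079041-rs51756099)/Bakr, a B6 genome with a D2 interval on chromosome 13. D2-13B6 is the reciprocal, a D2 genome with a B6 interval, and its label names D2.B6-(rs29224292-rs13469455)/Bakr where the design text gives rs51756099 as the distal marker. The positions of these markers were not used here. Every line had 2 technical replicates, so each side had 4 libraries, and background (B6 or D2) entered each fit as a covariate. All 4 lines were grown alike, in DMEM with 15% fetal bovine serum, LIF, 1 µM of the MEK inhibitor PD0325901 and 3 µM of the GSK3 inhibitor CHIR99021.

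The 2 sides differ in more than the donor interval. Each line is 1 cell line, so line and genotype cannot be told apart, and p-values rest on 8 libraries of 4 lines, largely on the spread between technical replicates. A parental minus congenic difference averages B6 minus B6-13D2 with D2 minus D2-13B6, which carry opposite alleles of the interval, so a fixed allele effect of the interval largely cancels in it. Over the 4 lines as units, an exact permutation test cannot go below 0.333. Library totals ran from 737955 to 952040 counts in the parental and from 982278 to 1425304 in the congenic libraries. Depth and status therefore cannot be told apart, and the libraries were also thinned to 737955 counts each, which makes the totals equal but leaves other differences between the libraries in place. The deeper congenic libraries also decided more of what was tested. Of the tested loops, 11369 reached the minimum in 2 or more libraries on the congenic side only, and 1392 on the parental side only.

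H3K27ac marks active promoters and enhancers, and in embryonic stem cells broad, strongly acetylated domains lie around pluripotency genes and other highly transcribed genes. Congenic strains carry a donor interval in the genome of another strain after repeated backcrossing, and stretches of donor genome elsewhere, or changes acquired in culture, can also set such a line apart from its parent. The cells carried the marks of embryonic stem cells: all 8 of 8 stem cell markers, Pou5f1, Nanog and Sox2 among them, had a tested anchor, with a summed level, as counts scaled to library size (CPM), of 2050.3 to 2463 CPM in the parental and 2247 to 2867 CPM in the congenic libraries. Of the markers of other cell types, 1 of 8 for fibroblast feeders, 1 of 5 for endoderm, 1 of 4 for neural cells, 0 of 4 for trophoblast and 0 of 4 for mesoderm had a tested anchor, and the tested markers of fibroblasts, endoderm and neural cells reached at most 21.3, 7.47 and 18.99 CPM in any library.

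Contacts within single domains took a larger share of the counts in the congenic libraries, though after adjustment no measure of this kind passed the test. Most but not all of the difference lay in the widest domains: anchors of 40 kb or wider took 15.5% ± 0.693 and 17.7% ± 0.682 in the parental and congenic libraries, and those under 20 kb took 2.12% ± 0.0498 and 2.09% ± 0.132 (SD, n = 4 each). Off chromosome 11 the median fold change of single loops inside 1 anchor was -0.09 within the B6 and 0.03 within the D2 background. Loops inside 1 anchor, which are contacts within a single merged domain, took 31.3% and 29.3% of counts in B6, 29.5% and 30.9% in D2, 32.7% and 33.4% in B6-13D2 and 32.9% and 33.1% in D2-13B6. Every parental library lay below every congenic one. The means were 30.2% ± 0.982 (SD, n = 4) and 33.0% ± 0.298 (SD, n = 4), a difference of -2.77 percentage points, with an exact two-sided permutation p of 0.0286 (adjusted p = 0.0714 over 10 measures). This p is the smallest that 70 arrangements of 8 libraries allow, so the adjusted value could fall below the threshold only if more of the measures separated. The same loops took 2.76 points less in B6 than in B6-13D2 and 2.78 points less in D2 than in D2-13B6.

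Long contacts went the other way. Loops spanning at least 100 kb took 29.7% ± 1.53 (SD, n = 4) of counts in the parental and 26.6% ± 0.595 (SD, n = 4) in the congenic libraries, again without overlap (exact permutation p = 0.0286, adjusted p = 0.0714). At 500 kb or more the shares were 9.80% ± 1.01 and 8.30% ± 0.223 (SD, n = 4 each), and the groups overlapped, because the first B6 library was at 8.35% and the first B6-13D2 library at 8.58% (exact permutation p = 0.0857, adjusted p = 0.107). At equal depth a parental library held 147601 ± 6941 different loops and a congenic one 132245 ± 2298 (SD, n = 4 each; exact permutation p = 0.0286, adjusted p = 0.0714). Loops from an anchor with a gene start to one without took 31.8% ± 0.399 against 30.7% ± 0.307 (SD, n = 4 each; exact permutation p = 0.0286, adjusted p = 0.0714). Loops between 2 anchors with gene starts took 20.1% on both sides (SDs 0.538 and 0.885, n = 4 each; exact permutation p = 0.971). None of the 10 measures passed the adjusted threshold.

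**Figure D1:**
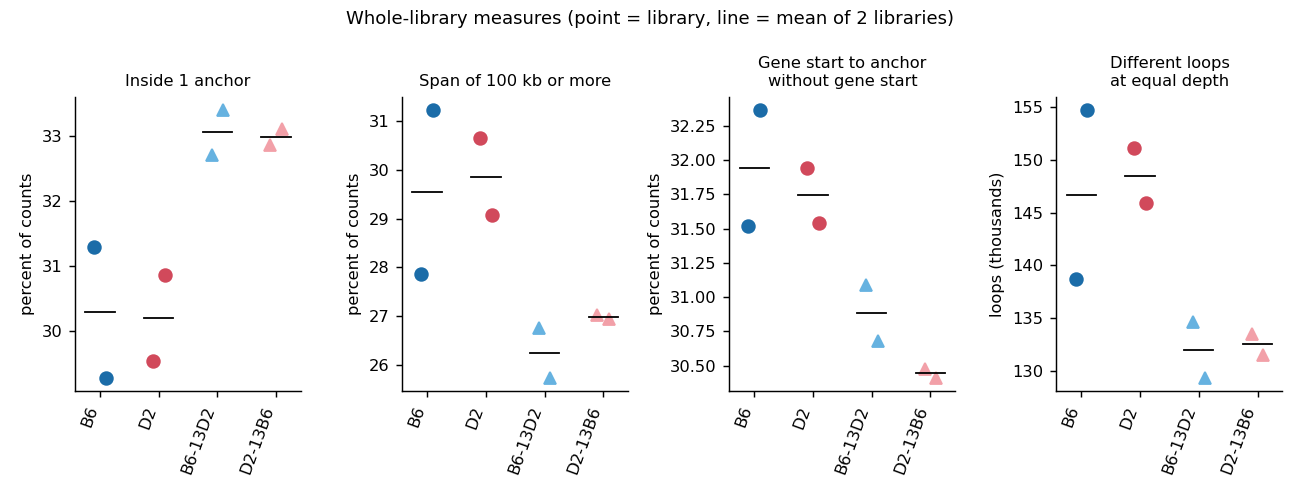
Whole-library measures in each of the 8 libraries, by line: share of counts inside 1 anchor, spanning 100 kb or more and between an anchor with and one without a gene start (percent), and different loops at equal depth. Points are libraries and lines the mean of 2, and the share inside 1 anchor lies at 29.3% to 31.3% in the parental and 32.7% to 33.4% in the congenic libraries.

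The strongest anchors also took a larger share in the congenic libraries. The strongest 1% of anchors held 16.0% ± 0.482 of the anchor sums in the parental and 18.1% ± 0.783 in the congenic libraries, and the weakest 50% held 6.33% ± 0.567 and 5.10% ± 0.280 (SD, n = 4 each). Off chromosome 11 the strongest 1% held 15.0% and 16.8%. These shares are given as a description.

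Few single loops differed between the sides. With edgeR's quasi-likelihood test and Benjamini-Hochberg adjustment over every tested loop, 79 of 44706 loops were called at a false discovery rate (FDR) of 0.05, which is 0.177%. Of these, 17 were higher (0.038%) and 62 lower (0.139%) in the parental lines. The loops of chromosome 11 made up 38 of the 79, all of them lower (0.788% of its 4822 tested loops). Off chromosome 11, 41 of 39884 loops were called (0.103%), of which 17 were higher (0.0426%) and 24 lower (0.0602%). Among the anchor sums, 113 of 21211 were called (0.533%), 16 of them higher (0.0754%) and 97 lower (0.457%). Off chromosome 11 these were 53 of 19551 (0.271%), with 16 higher (0.0818%) and 37 lower (0.189%), and on chromosome 11 they were 60 of 1660 (3.61%), all lower. Complete separation of the 4 parental from the 4 congenic libraries was common by itself: 2.05% of all tested anchors off chromosome 11 were higher and 2.07% lower in every parental library, and among the loops these shares were 1.33% and 1.58%. At equal depth 56 of 33783 loops (0.166%) and 143 of 19449 anchors (0.735%) were called, and these held 52 of the 79 loops and 96 of the 113 anchors. In 9 other draws 53 to 74 loops and 96 to 115 anchors were called, so the first draw, which is the one used below, gave the most anchors. It gave the fewest loops called higher off chromosome 11, 7 against 9 to 15 in the others. With the technical replicates of each line summed, which leaves 1 residual degree of freedom, 4 loops and 2 anchors were called, and with background left out of the fit 0 of each. The counts of calls hung on single libraries: off chromosome 11 there were 1 anchor and 3 loops without the second B6 library and 236 anchors and 76 loops without the first. The balance of directions hung on the scaling. With library totals in place of TMM factors 27 anchors were higher and 31 lower, and with the trend of fold change on abundance removed 16 loops were higher and 5 lower.

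The lower and the higher calls lay at different kinds of site. Off chromosome 11 the 37 anchors lower in parental lines were strong and wide, with a median of 319 CPM, a median width of 35 kb and a median fold change of -0.47 on the log2 scale. A start of a protein-coding gene lay in 22 of the 37, against 38.1% of all tested anchors and 65.5% of the strongest decile of anchors by abundance, to which 33 of the 37 belong. The 16 higher anchors had a median of 17.0 CPM, a width of 10 kb and a fold change of 1.00, and 1 of the 16 held a gene start. Over all tested anchors the median level was 20.1 CPM and the median width 10 kb. Of the 24 loops lower in parental lines off chromosome 11, 15 lay inside 1 anchor, as did 10.5% of all tested loops, and 7 had histone genes at both ends. None of the 17 higher loops lay inside 1 anchor.

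**Figure D2:**
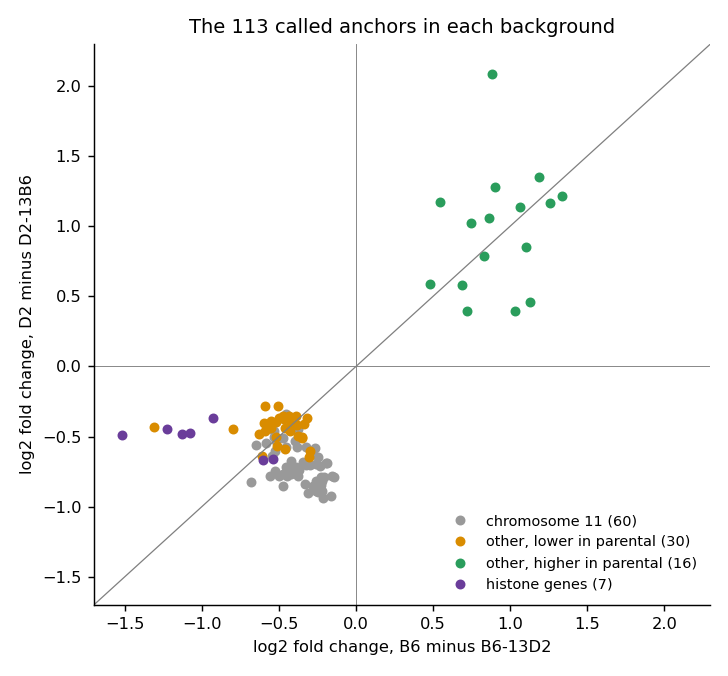
Log2 fold changes within the B6 background (x axis, B6 minus B6-13D2) against those within the D2 background (y axis, D2 minus D2-13B6) for the 113 anchors called in the averaged comparison, coloured by class, with the line of equality. All lie below 0 or above 0 on both axes, and the histone anchors of chromosome 13 reach farther below 0 on the B6 axis than on the D2 axis.

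Of the 37 lower anchors, 7 held replication-dependent histone genes. These genes encode the core histones H2A, H2B, H3 and H4 and the linker histone H1, are transcribed in S phase, and are clustered, with the Hist1 clusters on chromosome 13, Hist2 on chromosome 3, Hist3 on chromosome 11 and single genes elsewhere. The group was put together after these values had been seen. It comprised 14 anchors with the starts of 64 histone genes, and all 14 were tested. All 14 had a fold change below 0, in each background, with a median of -0.62 and a range of -0.95 to -0.21. Of the 14, 7 were called lower and 0 higher, where 0.457% of all tested anchors were called lower. Over all tested anchors off chromosome 11 the median was 0.03, and 45.7% were below 0. In the strongest decile of these by abundance the median was -0.15 and the upper quartile -0.05, and 33 of 1955 were called lower. The shares over all anchors are not matched for strength. Fold changes are on the log2 scale throughout, and a negative value is lower in parental lines.

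The largest histone anchor lay at chr13:23530001-23600000 (mm10) and held 14 histone gene starts, from Hist1h4h, an H4 gene, to Hist1h4d, with the H1 gene Hist1h1d between them. Its anchor sum was 196 and 277 in B6, 462 and 542 in D2, 512 and 513 in B6-13D2 and 588 and 811 in D2-13B6 CPM. The B6 line was lowest and D2-13B6 highest, and the sides overlapped, because the second D2 library exceeded both B6-13D2 libraries. The means were 369 ± 160.4 (SD, n = 4) in the parental and 606 ± 141 CPM (SD, n = 4) in the congenic libraries, a ratio of 1.64 of congenic to parental, and the fitted fold change was -0.79 (SE 0.13, FDR = 0.00336). It was -1.13 within the B6 and -0.48 within the D2 background, and these differed (FDR = 0.00963).

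A second anchor of the same cluster, at chr13:23735001-23770000, held the H1 genes Hist1h1c and Hist1h1a, 7 core histone genes and Trim38, which encodes a ubiquitin ligase. Its sum was 59.1 and 96.8 in B6, 193 and 212 in D2, 226 and 215 in B6-13D2 and 229 and 339 in D2-13B6 CPM. Here every parental library lay below every congenic one, but the step between D2 and the lowest congenic library was small beside the distance from B6 to D2. The means were 140.3 ± 73.9 (SD, n = 4) in the parental and 252 ± 57.99 CPM (SD, n = 4) in the congenic libraries, and the fold change was -0.95 (SE 0.17, FDR = 0.00633). It was -1.52 within the B6 and -0.49 within the D2 background, and these differed (FDR = 0.000247).

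On chromosome 3 the difference was as large in both backgrounds. The anchor at chr3:96235001-96280000, with Hist2h4, an H4 gene, and 6 other Hist2 genes, had sums of 189 and 202 in B6, 309.8 and 294 in D2, 288 and 305 in B6-13D2 and 438 and 522 in D2-13B6 CPM. In each background the parental libraries were the lower ones, though D2 and B6-13D2 overlapped. The fold change was -0.64 (SE 0.09, FDR = 0.00175), and it was -0.61 within the B6 and -0.67 within the D2 background. The anchor beside it at chr3:96215001-96230000, with Hist2h2ab, Hist2h2ac, Hist2h2be and the iron-sulphur protein gene Bola1, had sums of 83.4 and 75.5 in B6, 110.5 and 113 in D2, 115 and 117 in B6-13D2 and 172 and 181 in D2-13B6 CPM. Every parental library lay below every congenic one, and the fold change was -0.60 (SE 0.11, FDR = 0.00844).

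The other called histone anchors were smaller. At chr13:21710001-21740000, from Hist1h2bl to Hist1h4j, the fold change was -0.63 (SE 0.12, FDR = 0.0169). At chr13:21775001-21795000, from the H1 gene Hist1h1b to Hist1h2bp, it was -0.73 (SE 0.14, FDR = 0.0141). At chr13:23695001-23700000, with Hist1h1t, the testis H1 gene, and Hist1h4c, it was -0.76 (SE 0.17, FDR = 0.0394), at sums of 14.9 and 19.8 in B6, 42.7 and 36.5 in D2, 39.01 and 41.1 in B6-13D2 and 48.1 and 59.98 in D2-13B6 CPM. The uncalled anchors ran from -0.71 at chr13:23680001-23690000, with Hist1h2ac and Hist1h2bc (FDR = 0.0771), to -0.30 at chr6:136800001-136815000, with Hist4h4 and H2afj (FDR = 0.351), and -0.21 at the Hist3 anchor chr11:58950001-58960000 (FDR = 0.613). With a scaling factor for each chromosome the value of the Hist3 anchor turned to 0.052.

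The histone anchors were lower in the D2 as well as in the B6 background, with medians of -0.37 and -0.87. Within the B6 background 12 of the 14 were called, and within the D2 background 5, where 5.31% and 3.61% of all tested anchors off chromosome 11 were. The difference between the backgrounds itself passed the test at 5 of the 14, all on chromosome 13, and at each of these the B6 background had the more negative value. Of the 14, 7 were also called at equal depth, 4 with library totals in place of TMM factors, and 2 with the technical replicates of each line summed. Leaving out the first B6 library moved the median from -0.62 to -0.49, and leaving out the second moved it to -0.63. When the trend of fold change on abundance was removed, 0 of the 14 were called by edgeR and the median was -0.48, with all 14 below 0 and 11 at an unadjusted p under 0.05. Elsewhere on chromosome 13, 906 other anchors were tested, of which 0 were called lower (8 at edgeR's unadjusted p under 0.05) and 1 higher, with a median of 0.18. Histone genes are near-identical copies of one another, and how reads that map to several places were treated was not given in the sources used here.

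**Figure D3:**
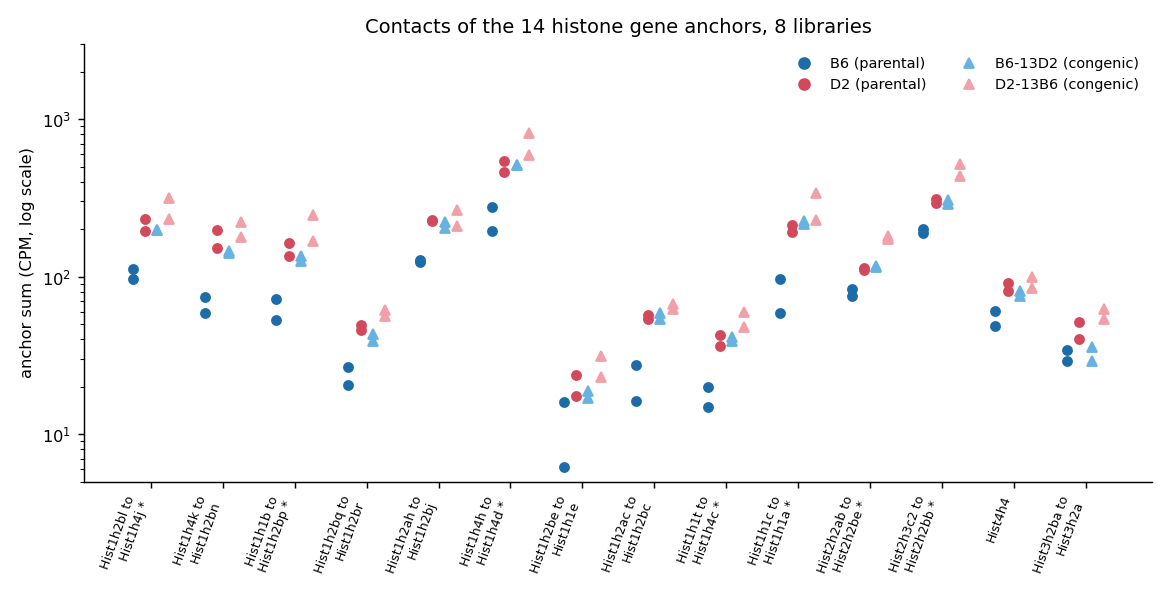
Anchor sum (CPM, log axis) of each of the 14 histone anchors in each of the 8 libraries, with symbols for the 4 lines and an asterisk on anchors called in the averaged comparison. The B6 libraries lie lowest at most of the anchors, and D2-13B6 highest, as at the anchor with Hist1h4h, where they range from 196 to 811 CPM.

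Contacts among the histone genes themselves had higher ratios of congenic to parental levels than their contacts with other sites. Contacts inside 1 histone anchor (10 tested loops) summed to 449.5 and 532 CPM in B6, 969 and 1062 in D2, 956 and 1022 in B6-13D2 and 1373 and 1927 in D2-13B6. The congenic mean was 1.75 times the parental one, 2.01 times in the B6 and 1.62 times in the D2 background. Contacts between 2 histone anchors less than 500 kb apart (21 loops) summed to 533 ± 264 and 835 ± 202 CPM (SD, n = 4 each), a ratio of 1.57. At 500 kb or more the ratio was 1.45. By background, the ratios between histone anchors were 2.20 under 500 kb and 2.31 beyond it in B6, and 1.31 and 1.188 in D2. The ratio of 2.31 rests on 21 and 33 counts in the B6 libraries. Between a histone anchor and any other anchor (601 loops) the ratio was 1.15, with 1.39 in the B6 and 0.994 in the D2 background. Sums over the class were not tested. The loop inside chr13:23530001-23600000 had raw counts of 129 and 142 in B6, 280 and 311 in D2, 333 and 474 in B6-13D2 and 668 and 1012 in D2-13B6, and a fold change of -0.90 (SE 0.12, FDR = 9.45e-07). The loop inside chr13:23735001-23770000 had levels of 43.7 and 65.3 in B6, 124 and 133 in D2, 151 and 150.3 in B6-13D2 and 161 and 269 in D2-13B6 CPM and a fold change of -1.06 (SE 0.16, FDR = 2.98e-05).

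Promoter sequences of 3 histone genes in these 2 anchors are given, since both anchors were called lower. No marked element is common to all 3: Hist1h2bh has 3 matches to CCAAT and Hist1h1c has 1, with 0 to GGGCGG in both, and Hist1h4h has 1 match to GGGCGG and 0 to CCAAT. Each is the 250 bases before the start in RefSeq's table for GRCm38.p6, 5′ to 3′ on the gene's strand, and capitals mark CCAAT, the box bound by NF-Y (ATTGG where it lies on the other strand), and GGGCGG, the box bound by Sp1. Hist1h2bh (chr13:23543445-23543694, minus strand) and Hist1h4h (chr13:23530794-23531043, plus strand) lie in the larger anchor, and Hist1h1c (chr13:23738557-23738806, plus strand) in the second.
Hist1h2bh: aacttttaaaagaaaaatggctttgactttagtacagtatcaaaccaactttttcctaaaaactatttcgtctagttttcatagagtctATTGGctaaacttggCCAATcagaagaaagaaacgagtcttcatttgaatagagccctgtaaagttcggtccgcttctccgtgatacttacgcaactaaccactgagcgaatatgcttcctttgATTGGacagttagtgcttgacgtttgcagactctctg
Hist1h4h: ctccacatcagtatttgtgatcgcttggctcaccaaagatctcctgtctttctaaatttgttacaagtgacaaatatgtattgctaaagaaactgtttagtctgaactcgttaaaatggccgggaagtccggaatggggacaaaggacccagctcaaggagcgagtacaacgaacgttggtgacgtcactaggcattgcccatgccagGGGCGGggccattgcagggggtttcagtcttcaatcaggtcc
Hist1h1c: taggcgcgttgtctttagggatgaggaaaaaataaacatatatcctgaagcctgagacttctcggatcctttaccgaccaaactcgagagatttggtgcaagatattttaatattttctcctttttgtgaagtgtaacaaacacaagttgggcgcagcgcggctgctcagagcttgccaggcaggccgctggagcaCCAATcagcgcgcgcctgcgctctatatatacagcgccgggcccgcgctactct

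Of the 64 histone genes, 58 were matched in that table, with 59 promoters. Searched on both strands and without regard to overlap with other motifs, CCAAT was found in 81.4% of the 59 and in 33.8% of all 32851 promoters of the same length. TATAAA was found in 44.1% and 12.4%, and the octamer ATTTGCAT, which POU factors bind, in 20.3% and 1.60%. GGGCGG was found in 33.9% and 32.7%. CCAAT was present in all promoters of H1, H2A and H2B genes, in 80% of H3 and in 25% of H4 promoters, and ATTTGCAT in 37.5% of H2A and 40% of H2B promoters and in none of the other classes. These are matches of letters, given as a description of the promoters, and no binding was measured.

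Outside the histone genes, 30 anchors off chromosome 11 were lower in parental lines. Their fold changes were narrow in range, from -0.82 to -0.34 with a median of -0.45, and alike in both backgrounds, with medians of -0.47 in the B6 and -0.44 in the D2 background. Of the 30, 28 had every parental library below every congenic one, 25 were also called at equal depth, 28 were called within the B6 and 27 within the D2 background, and 0 differed between the backgrounds in edgeR's test of the difference (3 at an unadjusted p under 0.05). With library totals 9 of the 30 were called, with the replicate block 7, and with the technical replicates of each line summed 0. The averaged comparison is built from both backgrounds and the same libraries. A shared direction, a like size and calls within each background are therefore partly a consequence of the call. All of the 113 called anchors had the same sign in both.

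The anchor with the smallest FDR of this group lay at chr6:39390001-39460000 and held the start of Mkrn1, a RING-finger ubiquitin ligase. Its sum was 497 and 415 in B6, 589 and 615 in D2, 643 and 660.3 in B6-13D2 and 824 and 959 in D2-13B6 CPM. All 4 parental libraries lay below all 4 congenic ones. The means were 529 ± 91.5 (SD, n = 4) in the parental and 772 ± 149 CPM (SD, n = 4) in the congenic libraries, a ratio of 1.46, and the fold change was -0.54 (SE 0.09, FDR = 0.00342). It was -0.51 within the B6 and -0.57 within the D2 background. The loop inside this anchor had levels of 715 and 575 in B6, 797 and 862 in D2, 876 and 915 in B6-13D2 and 1197 and 1353 in D2-13B6 CPM and a fold change of -0.55 (SE 0.10, FDR = 0.000767). CPM of loops and of anchor sums rest on different totals, so these levels are not on the scale of the anchor sum.

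Other loops that the rule named as lower lay inside single anchors with gene starts and had fold changes of like size. The loop inside chr12:4870001-4925000, with the starts of Mfsd2b, a lipid transporter, Ubxn2a, an adaptor of the p97 ATPase, and Atad2b, a bromodomain ATPase, had levels of 672 and 550.4 in B6, 754 and 806 in D2, 930.5 and 891 in B6-13D2 and 1055 and 1178 in D2-13B6 CPM and a fold change of -0.54 (SE 0.10, FDR = 0.000767). All 4 parental libraries were below all 4 congenic ones. The loop inside chr4:126935001-126985000, with Zmym4, a zinc finger gene, had 704 and 681 in B6, 560.1 and 681 in D2, 1054 and 972 in B6-13D2 and 859 and 836 in D2-13B6 CPM, and here the D2 lines were the lower pair on each side. Its fold change was -0.50 (SE 0.10, FDR = 0.00381). The loop inside chr15:102385001-102430000, with Sp1, a transcription factor that binds GC boxes, had 837 and 727 in B6, 826 and 827 in D2, 970.1 and 1052 in B6-13D2 and 1221 and 1239 in D2-13B6 CPM and a fold change of -0.47 (SE 0.09, FDR = 0.00496).

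A domain inside which the miR-290 cluster lies was among the named lower loops. The cluster encodes the most abundant microRNAs of mouse embryonic stem cells, several of which share a seed that targets inhibitors of the cell cycle. The anchor at chr7:3180001-3240000 overlaps the body of Nlrp12 and held 17 mature miRNAs of 9 genes of the RefSeq table. The 3 below share the seed AAGUGCU, bases 2 to 8, which is in capitals.
mmu-miR-291a-3p: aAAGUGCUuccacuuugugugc
mmu-miR-294-3p: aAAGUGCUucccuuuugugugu
mmu-miR-295-3p: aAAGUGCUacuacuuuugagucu
The loop inside the anchor had levels of 355 and 353 in B6, 439 and 413 in D2, 491 and 481 in B6-13D2 and 589 and 697 in D2-13B6 CPM. All 4 parental libraries lay below all 4 congenic ones, with B6 lowest and D2-13B6 highest. The means were 389.9 ± 43.2 (SD, n = 4) in the parental and 564 ± 101 CPM (SD, n = 4) in the congenic libraries, a ratio of 1.45, and the fold change was -0.53 (SE 0.11, FDR = 0.00527). The anchor sum had a fold change of -0.37 (SE 0.09, FDR = 0.0405). HiChIP counts contacts of acetylated chromatin, and the level of the miRNAs was not measured.

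Other lower domains held no gene start. A loop between chr2:119825001-119865000 and chr2:119870001-119880000, 17.2 kb from Mga, a repressor of germline genes that pairs with Max, had levels of 207 and 158 in B6, 224 and 217 in D2, 322 and 351 in B6-13D2 and 324 and 317 in D2-13B6 CPM and a fold change of -0.70 (SE 0.12, FDR = 0.000587). The congenic libraries lay close together here and above all parental ones. The anchor at chr19:23065001-23110000, 31.2 kb from Klf9, a Krüppel-like transcription factor, had sums of 373 and 355 in B6, 399 and 402 in D2, 512 and 530.4 in B6-13D2 and 537 and 599 in D2-13B6 CPM and a fold change of -0.51 (SE 0.09, FDR = 0.00504). The sides did not overlap, and the fold change was -0.52 within the B6 and -0.50 within the D2 background. The anchor at chr12:72710001-72750000, 11.2 kb from the phosphatase gene Ppm1a, had a fold change of -0.49 (SE 0.09, FDR = 0.00844).

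Further anchors called lower were named after their values had been seen. The anchor of Usp9x, a deubiquitinase gene on the X chromosome (chrX:13035001-13080000) had a fold change of -0.47 (SE 0.09, FDR = 0.0155), and that of Usp7, which encodes another deubiquitinase (chr16:8735001-8815000) -0.40 (SE 0.08, FDR = 0.0222). The anchor of Eef1a1, which delivers tRNA to the ribosome (chr9:78475001-78510000), had -0.40 (SE 0.09, FDR = 0.0344). The anchor of Spen, a repressor that acts in X inactivation (chr4:141535001-141580000), had -0.46 (SE 0.10, FDR = 0.0394), and that of the corepressor gene Cbfa2t2 (chr2:154415001-154470000) had -0.34 (SE 0.08, FDR = 0.0344). In each of these 5 all parental libraries lay below all congenic ones.

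The contacts called higher in parental lines were weaker than those called lower. Among all tested loops, the median of the higher ones off chromosome 11 lay at the 72.2nd percentile of abundance and that of the lower ones at the 99.4th, and among the anchors these were the 44.2nd and 98.03rd. Only 2 of the 17 higher loops off chromosome 11 were above every congenic library in every parental library. The loop between chr14:50990001-51000000 and chr14:51005001-51015000, the latter with the start of Rnase10, a ribonuclease-like gene of the epididymis, had levels of 47.4 and 44.1 in B6, 25.8 and 23.8 in D2, 17.3 and 15.4 in B6-13D2 and 11.6 and 15.8 in D2-13B6 CPM. B6 was highest and D2 lay between B6 and the congenic lines. The means were 35.3 ± 12.2 (SD, n = 4) in the parental and 15.02 ± 2.43 CPM (SD, n = 4) in the congenic libraries, which is 2.35 times the congenic mean, and the fold change was 1.21 (SE 0.26, FDR = 0.00986). It was 1.50 within the B6 and 0.85 within the D2 background. The anchor of Rnase10 had a fold change of 0.73 (SE 0.17, FDR = 0.0405).

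The other separated loop lay between chr2:109840001-109850000 and chr2:109855001-109865000, 25.9 to 40.9 kb from Lin7c, a scaffold gene. Its levels were 22.5 and 22.9 in B6, 24.4 and 20.6 in D2, 8.66 and 9.05 in B6-13D2 and 12.5 and 5.26 in D2-13B6 CPM, with the parental libraries close together. The means were 22.6 ± 1.55 (SD, n = 4) in the parental and 8.87 ± 2.95 CPM (SD, n = 4) in the congenic libraries, a ratio of 2.55, and the fold change was 1.34 (SE 0.31, FDR = 0.0298). It was 1.34 within the B6 and 1.34 within the D2 background. In the first draw at equal depth its fold change was 1.28 and it was not called (FDR = 0.141). The anchor at chr2:109840001-109850000 had sums of 16.2 and 19.8 in B6, 17.6 and 18.2 in D2, 10.1 and 6.07 in B6-13D2 and 8.09 and 5.86 in D2-13B6 CPM and a fold change of 1.27 (SE 0.24, FDR = 0.011).

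Of the 16 higher anchors, 8 were above every congenic library in every parental library. Besides those above, the anchor at chr2:126300001-126315000 had sums of 9.96 and 9.91 in B6, 15.6 and 11.4 in D2, 4.404 and 6.07 in B6-13D2 and 3.596 and 2.71 in D2-13B6 CPM and a fold change of 1.48 (SE 0.32, FDR = 0.0272). The anchor at chr9:42855001-42865000, in the body of Grik4, a kainate receptor gene, had 1.10 (SE 0.25, FDR = 0.0365), and that at chr9:61570001-61580000 had 0.95 (SE 0.21, FDR = 0.0361). The strongest of the 8 was chr4:55300001-55320000, about 30 kb from Rad23b, a gene of nucleotide excision repair, with sums of 129 and 128 in B6, 95.6 and 123 in D2, 84.9 and 71.96 in B6-13D2 and 89.9 and 75.8 in D2-13B6 CPM and 0.56 (SE 0.13, FDR = 0.0367). The anchors at chr9:57920001-57925000, in the body of Ubl7, and chr9:103145001-103160000, in the body of Rab6b, had 0.79 (SE 0.18, FDR = 0.0441) and 0.63 (SE 0.15, FDR = 0.0498). Of the 16, 11 were called within the B6 and 10 within the D2 background, 10 were also called at equal depth, and 0 differed between the backgrounds in edgeR's test (1 at an unadjusted p under 0.05). Likeness of the backgrounds is here too partly a consequence of the averaged call. DESeq2's filter on low means left an adjusted p for 2 of the 16 higher anchors and 1 of the 17 higher loops, and it called all of these. Of the 16 anchors, 2 were called with the replicate block and 0 with the technical replicates of each line summed or with the trend on abundance removed.

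Of the 17 higher loops, 9 rested on 1 line. They joined sites of 1 segment of chromosome 19, from the starts of Fgfbp3 and Btaf1 through Ide, the insulin-degrading enzyme gene, to Kif11, a mitotic kinesin. The loop between chr19:36915001-36930000 and chr19:37375001-37380000 had 59 and 44 counts in B6, 1 and 0 in D2, 0 and 0 in B6-13D2 and 2 and 1 in D2-13B6. The fitted fold change was 5.25 (SE 0.53, FDR = 6.74e-11), which rests on counts at or near 0 in every line but B6 and is no measure of size. Within the D2 background the contrast was -0.71 and was not called (FDR = 0.931). The difference between the backgrounds passed the test (FDR = 0.00198). All 9 loops called among 36 tested in the segment were higher. Without the segment, which was left out after the data had been seen, 32 loops off chromosome 11 were called, 8 of them higher.

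Another 4 higher loops, named after their values had been seen, had next to no counts in the B6 background. The loop in the body of Nrcam, a neuronal adhesion gene (chr12:44480001-44485000 and chr12:44490001-44495000), had 4.99 and 0 in B6, 74.7 and 109.5 in D2, 0 and 1.81 in B6-13D2 and 39.2 and 42.1 in D2-13B6 CPM, so that it was high in D2, lower in D2-13B6 and near 0 in both lines of the B6 background, with a fold change of 1.18 (SE 0.26, FDR = 0.0176). Loops near Rb1cc1, near Rnf223 and in the body of Lrp1b showed the same order, with fold changes of 1.49, 1.23 and 1.95. In the first draw at equal depth the loop near Rb1cc1 was called (FDR = 0.0453) and the other 3 were not (FDR = 0.351 at Nrcam, 0.111 near Rnf223 and 0.356 in Lrp1b). The loop at Khdc1a (chr1:21320001-21335000 and chr1:21340001-21355000), a gene of early embryos, had a positive fold change in both backgrounds. It had 42.5 and 52.3 in B6, 18.7 and 14.3 in D2, 17.3 and 17.2 in B6-13D2 and 5.35 and 6.14 in D2-13B6 CPM and a fold change of 1.46 (SE 0.28, FDR = 0.00288). The D2 libraries overlapped with those of B6-13D2, so that the sides were apart only within each background.

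Chromosome 11 was counted apart, since 1 line carried a larger share of its counts there. That share was 10.6% and 10.0% in B6, 10.3% and 10.3% in D2, 10.1% and 10.3% in B6-13D2 and 13.90% and 13.96% in D2-13B6. The median fold change of its anchors was -0.22 in the averaged comparison, 0.04 within the B6 and -0.46 within the D2 background. The 60 called anchors had medians of -0.38 in the B6 and -0.72 in the D2 background. All 60 were called within the D2 and 26 within the B6 background, and at 16 the difference between the backgrounds passed the test. With a scaling factor for each chromosome, 10 of the 60 anchors and 6 of the 38 loops were called.

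The loop inside chr11:33505001-33555000, at Ranbp17, a nuclear transport receptor gene, had levels of 619 and 611 in B6, 793 and 811 in D2, 907 and 863 in B6-13D2 and 1338 and 1346 in D2-13B6 CPM and a fold change of -0.64 (SE 0.09, FDR = 2.98e-05). It was -0.52 within the B6 and -0.74 within the D2 background. The loop inside chr11:97300001-97330000, at Mrpl45, a mitochondrial ribosome gene, had 145 and 168 in B6, 157 and 167 in D2, 240.04 and 277 in B6-13D2 and 313 and 302 in D2-13B6 CPM and -0.83 (SE 0.13, FDR = 2.98e-05). In both loops all parental libraries lay below all congenic ones, as in 3.94% of the tested loops of chromosome 11. The rule named them for the smallest FDR on this chromosome, whether or not the sides separated. No loop of chromosome 11 was called higher by edgeR (22 were above 0 at an unadjusted p under 0.05).

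**Figure D4:**
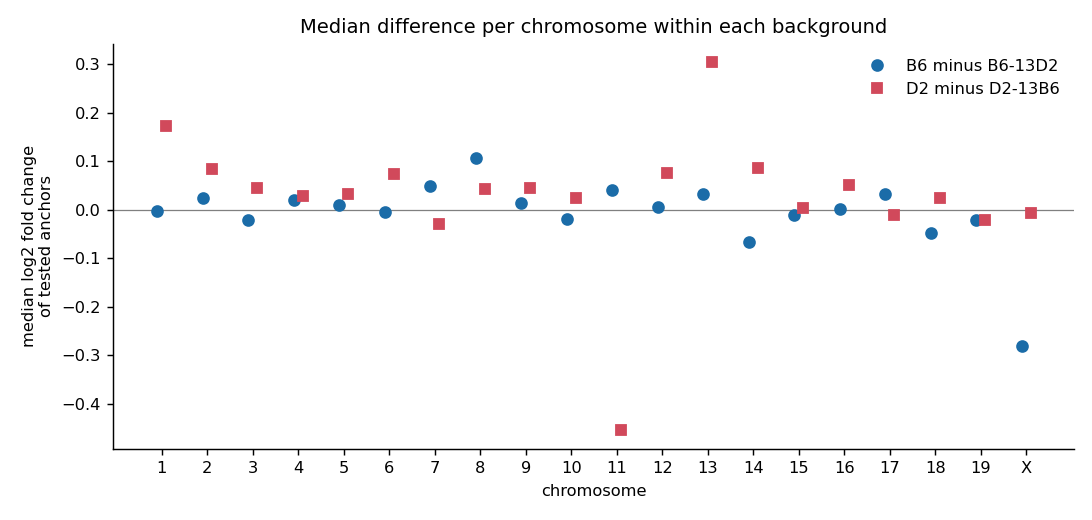
Median log2 fold change (parental minus congenic) of the tested anchors of each chromosome within the B6 background (circles) and the D2 background (squares). Chromosome 11 stands at -0.46 within the D2 background and 0.04 within the B6 background, and chromosome 13 at 0.30 and 0.03.

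The chromosome that carries the donor interval had a median of the opposite sign to that of chromosome 11. Chromosome 13 took 3.33% ± 0.152 of counts in the parental and 3.02% ± 0.253 in the congenic libraries (SD, n = 4 each; exact permutation p = 0.0857, adjusted p = 0.107). The median fold change of its anchors was 0.17, with 0.03 within the B6 and 0.30 within the D2 background. On the X chromosome it was -0.14, with -0.28 and -0.01. These values are relative to all counts of a library, of which D2-13B6 had a larger share on chromosome 11. Within the D2 background the median of all tested anchors off chromosome 11 was 0.06, beside 0.30 on chromosome 13. The cause of the chromosome 13 value was not tested.

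The size and the sign of the difference followed the strength of an anchor. Off chromosome 11 the median fold change ran from 0.19 in the weakest to -0.15 in the strongest decile of anchors by abundance. It ran from 0.17 to -0.16 in the B6 and from 0.23 to -0.13 in the D2 background, so the trend was present in both contrasts, which share no library. Of the 37 lower anchors, 33 were in the strongest decile, and 0 of the 16 higher ones. With this trend removed, 0 of the 53 called anchors were called by edgeR (46 at an unadjusted p under 0.05), and among the loops 3 of the 24 lower and 12 of the 17 higher ones were. The calls on strong domains are thus calls of the same sign as the trend over all anchors. Its dependence on depth was not tested beyond the thinned fit.

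**Figure D5:**
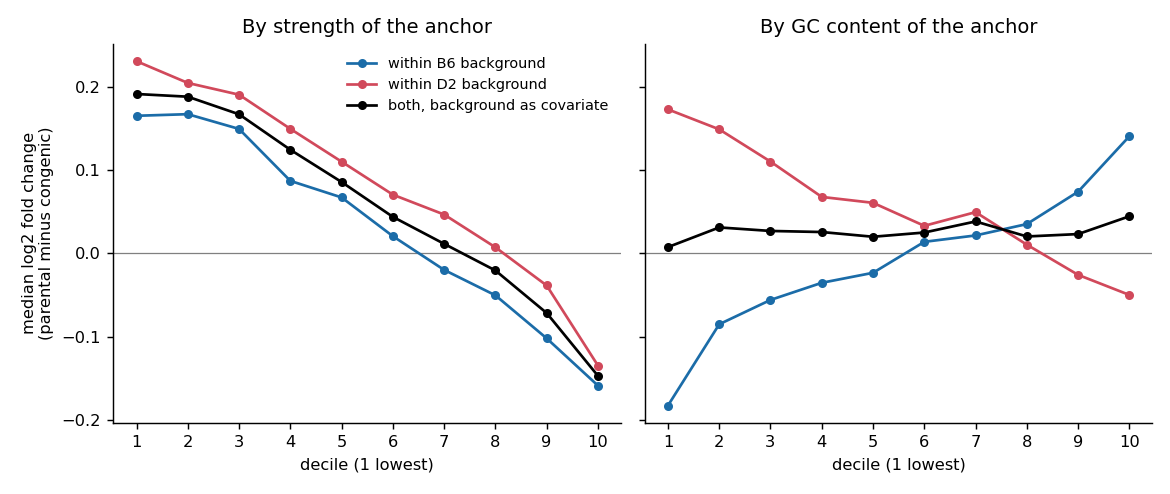
Median log2 fold change (parental minus congenic) in deciles of the tested anchors off chromosome 11, ordered by abundance and by GC content, averaged and within each background. Along abundance the averaged median runs from 0.19 to -0.15, with both backgrounds alike, and along GC content the backgrounds run in opposite directions.

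GC content behaved differently. Averaged over backgrounds its deciles had no trend, but within the B6 background the median ran from -0.18 in the decile with the lowest GC content to 0.14 in the highest, and within the D2 background it ran from 0.17 to -0.05. The averaged comparison cancels these opposite trends, and each contrast alone does not.

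Most calls within a background were not calls of the same sign within the other. Off chromosome 11, 355 loops (0.89%) were called between B6 and B6-13D2 and 228 (0.572%) between D2 and D2-13B6. Of the former, 41.1% had the same sign in the D2 background, and of the latter 41.2% in the B6 background. Loops called in both were 11 with the same and 24 with the opposite sign. The 11 were 3.10% of the calls within the B6 background, where 0.572% of all tested loops were called within D2. They were 4.82% of the calls within the D2 background, where 0.89% of all were called within B6. Among the anchors 1039 (5.31%) and 705 (3.61%) were called, 44.6% and 46.7% of them alike in sign across backgrounds. Anchors called in both were 45 with the same and 78 with the opposite sign. The 45 were 4.33% of the calls within B6, where 3.61% of all tested anchors were called within D2. They were 6.38% of the calls within D2, where 5.31% of all were called within B6. The same-sign shares over all tested features are not given here. Of the calls of parental against congenic lines, 77 of 79 loops and all 113 anchors had the same sign in both backgrounds, and the averaged contrast itself favours such features.

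Of 104 different tested anchors on the lists of genes for stem cell identity, signalling and chromatin, 2 were called, which is 1.92%, where 0.533% of all tested anchors were. Both lay on chromosome 11. Off chromosome 11, 0 of 98 were called by edgeR at full depth (22 at an unadjusted p under 0.05, where 11.1% of all tested anchors off chromosome 11 had one), and 0.271% of all were called. In the first draw at equal depth, in which 72 of 17876 anchors off chromosome 11 were called (0.403%), 5 of the 98 were called, all lower, those of Dppa5a, Smarcad1, Atf7ip, Kat2b and Cdkn1a. Of 20 naive pluripotency genes, which include Pou5f1, Nanog, Sox2 and Klf4, all 20 had a tested anchor, 0 were called by edgeR at full depth (5 at an unadjusted p under 0.05), and 17 had a fold change below 0, with a median of -0.16. When the trend on abundance was removed, 8 of the 20 were below 0 and the median was 0.03, so the direction of this list turned with the scaling. The anchor nearest to a call was that of Dppa5a, a stem cell RNA-binding protein (chr9:78355001-78395000), with sums of 268 and 285 in B6, 272 and 269 in D2, 305 and 313 in B6-13D2 and 419.9 and 435 in D2-13B6 CPM and a fold change of -0.41 (SE 0.10, FDR = 0.0561). At equal depth it was called (FDR = 0.0413). All parental libraries lay below all congenic ones, and D2-13B6 was highest. Pou5f1, which encodes Oct4, had 482 and 367 in B6, 385 and 393 in D2, 440.4 and 532 in B6-13D2 and 502 and 523 in D2-13B6 CPM and -0.30 (SE 0.10, FDR = 0.171). Sox2, its partner, had 162 and 159 in B6, 239 and 223 in D2, 191 and 214 in B6-13D2 and 256 and 292 in D2-13B6 CPM and -0.29 (SE 0.10, FDR = 0.192).

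Of 14 genes of the formative and primed states 6 had tested anchors, with 5 below 0 and a median of -0.06. Of the targets of the culture inhibitors 12 were tested, with 6 below 0 and a median of -0.02. The cohesin and CTCF list had 17 tested, 11 below 0 and a median of -0.14. The acetylation writers, erasers and readers had 15 tested, 12 below 0 and a median of -0.23. None of the members of these 4 lists was called by edgeR at full depth, and at an unadjusted p under 0.05 there were 1, 1, 2 and 4 of them, in the same order. With the trend on abundance removed the medians were -0.06 in the formative and primed, 0.01 in the culture inhibitor, -0.03 in the cohesin and CTCF and -0.002 in the acetylation list, with 4 of 6, 6 of 12, 11 of 17 and 8 of 15 below 0. With library totals they were 0.05, 0.09, -0.03 and -0.13, in the same order. The acetyltransferase gene Kat2b (chr17:53550001-53625000) was nearest to a call in that list, at 676 and 598 in B6, 749.7 and 780.02 in D2, 894 and 869.6 in B6-13D2 and 878 and 918 in D2-13B6 CPM and -0.35 (SE 0.08, FDR = 0.0537). All parental libraries lay below all congenic ones there, and at equal depth it was called (FDR = 0.0437). Genes of the 2-cell-like and germline list had no tested anchor (0 of 15).

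The 2 list members called both lay on chromosome 11. Of the zinc finger corepressor and heterochromatin list, 21 were tested, 15 were below 0 with a median of -0.06, and the anchor of Cbx1, which encodes HP1β, was called lower. Its sums were 730.2 and 673 in B6, 668 and 661 in D2, 702 and 848 in B6-13D2 and 1107 and 1186 in D2-13B6 CPM and its fold change was -0.47 (SE 0.11, FDR = 0.0365). It was -0.15 within the B6 and -0.79 within the D2 background, which differed (FDR = 0.00234), and it was not called with a scaling factor for each chromosome. The median of this list turned to 0.04 with the trend on abundance removed and to 0.05 with library totals, with 9 of 21 below 0 in each. Of the p53 targets 14 were tested, 10 were below 0 with a median of -0.11, and the anchor with Ccng1, Hmmr and Nudcd2 was called lower, at 174 and 166 in B6, 199 and 219 in D2, 216 and 200.00 in B6-13D2 and 303 and 336 in D2-13B6 CPM and -0.46 (SE 0.10, FDR = 0.0361). With the trend on abundance removed and with library totals 7 of the 14 p53 target anchors were below 0, with medians of -0.009 and -0.003. With library totals in place of TMM factors the median of all anchors moved from 0.01 to 0.12, so that the medians of the lists shift upward with it. On that scale 13 of the 20 pluripotency anchors were below 0.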

How the data were processed

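H3K27ac HiChIP contacts were compared between 4 parental and 4 congenic libraries, grouped by the labels. The authors deposited raw whole-number counts of read pairs per loop, not normalized, as 1 table of 415681 loops and 1 file per library. The submitters' processing notes name mm10, BWA 0.7.18, SAMtools 1.19.2 and edgeR 3.34.1. The loop caller and the placement of multi-mapping reads are not given in the sources used here. The number of columns that matched no sample was 0.

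Counts carried no molecular identifiers, so PCR copies cannot be removed here. Tested loops (5 counts in 2 libraries) held 79.0% to 84.3% of a library's counts. Loops and anchor sums (10 counts in 2 libraries) were fitted with edgeR 4.0.16 and its quasi-likelihood test (R 4.3.3, limma 3.58.1), with TMM factors, background as covariate and Benjamini-Hochberg adjustment at an FDR of 0.05. A second fit with 1 mean per line gave the contrast within each background and the test of their difference. Standard errors were taken as the size of the fold change over the root of its F statistic. CPM are counts scaled to library size with TMM factors. Library size was the total over tested loops for loops and over tested anchor sums for anchors, 783167 and 1586002 in the first B6 library. Loop and anchor CPM are therefore not on one scale. A fold between sides is a ratio of mean CPM. Whole-library measures were tested by exact permutation over 70 arrangements, two-sided. Libraries were thinned to 737955 counts in 10 draws. The fitting was tested on simulated data. Same-numbered replicates did not deviate together (correlations of -0.0427 to 0.00792 over loops and -0.151 to 0.0258 over anchors), so they were not paired. Replicates of a line differed by more than sampling noise (chi-square over degrees of freedom 1.05 to 1.20), and none were merged.

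Genes are protein-coding starts of GENCODE M21 in an anchor or within 5 kb of it. Coordinates are 1-based. The rule named the 8 higher and 8 lower separated loops and anchors with the smallest FDR off chromosome 11, skipping midpoints within 1 Mb. On chromosome 11 it named the 2 loops with the smallest FDR in each direction. It also named the called members of the gene lists, or those with the smallest p where a list had none called. Members and lists were chosen with earlier results of these data known, and the histone list, the chromosome 19 segment and further names were added after their values had been seen. A few features named by these rules are not reported here. Alternatives were DESeq2 1.42.0, other filters, scalings and thresholds, a replicate block, and leaving out libraries.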

Additional observations from a re-analysis of the deposited data

Results flagged for a closer look

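Among 250 sets of 4 libraries of 1 side, 12 held a library that stood apart by Dixon's criterion, which chance gives in about 1 set in 20. The first B6 library had the lowest share of counts on chromosome 13, 3.10%, where the nearest parental library had 3.39%. At the histone anchor chr13:23735001-23770000 the second D2-13B6 library had 339 CPM against 229 for the nearest congenic library, and the loop inside it 269 against 161 CPM. At the Zmym4 loop (chr4:126935001-126985000) the first D2 library had 560.1 against 681 CPM, and at the Sp1 loop (chr15:102385001-102430000) the second B6 library had 727 against 826 CPM. At the anchor chr18:61030001-61040000, of Cdx1, the first B6-13D2 library had 10.1 against 13.9 CPM. The second B6 library was low at the anchors chr2:119825001-119865000, near Mga (437 against 523.5 CPM), and chr16:8735001-8815000, of Usp7 (885 against 1051 CPM). The second D2 library was high at the Usp9x anchor chrX:13035001-13080000 (451 against 372 CPM). The first B6 library was high at chr9:58265001-58290000 (377 against 315 CPM) and at chr2:119895001-119900000, with the start of Mga (80.9 against 69.9 CPM). The first B6-13D2 library was low at the loop between chr9:58230001-58260000 and chr9:58265001-58290000 (433 against 494 CPM).

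Of 115 loops and anchors, which are those named by the rule, called off chromosome 11 or holding histone genes, 10 differed between the backgrounds in edgeR's quasi-likelihood test with Benjamini-Hochberg adjustment. The values are the contrast within the D2 minus that within the B6 background, on the log2 scale, over 8 libraries. On chromosome 13, 5 histone anchors differed. The value was 1.03 at chr13:23735001-23770000 (FDR = 0.000247), 0.92 at chr13:21745001-21770000 (FDR = 0.00112), 0.69 at chr13:22020001-22055000 (FDR = 0.00779), 0.65 at chr13:23530001-23600000 (FDR = 0.00963) and 1.188 at chr13:23680001-23690000 (FDR = 0.00284). In all 5 the D2 background had the smaller deficit in the parental line. It was -0.50 at the Dppa5a anchor (FDR = 0.042), and on chromosome 11 -0.64 at the Cbx1 anchor (FDR = 0.00234) and -0.76 at the Kat7 anchor (FDR = 0.000522), where D2-13B6 was the line apart. Of the loops, 2 differed, both in the segment of chromosome 19. The value was -1.327 at chr19:37320001-37330000 and chr19:37335001-37350000 (FDR = 0.00302). It was -9.69 at chr19:36915001-36930000 and chr19:37375001-37380000 (FDR = 0.00198), a fitted value that rests on counts at or near 0 in 3 of the 4 lines and is no measure of size.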

How the results depend on the processing

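Counts of calls depended on the fit more than the direction of single values did. Called loops were 79 (41 off chromosome 11) and called anchors 113 (53 off chromosome 11). Loops came to 21 (19) with the trend on abundance removed, 46 (26) with a stricter filter, 0 (0) with no filter, where 9071 had an unadjusted p under 0.05, 271 (169) with 1 mean per line, 0 (0) with background left out, 4 (4) with replicates summed per line and 44 (22) at an FDR of 0.01. Without chromosome 11 in the fit 42 loops were called. At equal depth 25 loops were called off chromosome 11 (26 to 37 in 9 other draws), and with DESeq2 25, 24 of them lower. Anchors came to 245 (134, 130 of them lower) with DESeq2, whose filter left 3528 anchors with an adjusted p, 0 (0) with the trend removed, where 1838 had an unadjusted p under 0.05, 1025 (728) with 1 mean per line, 0 (0) with background left out (1422 at an unadjusted p under 0.05), 2 (2) with replicates summed and 24 (11) at an FDR of 0.01. Library totals gave 58 anchors, and a factor per chromosome 126 off chromosome 11. The replicate block, by number, kept 55 loops (29) and 32 anchors (15), 13 of the 37 lower and 2 of the 16 higher ones. The numbers do not pair the libraries, and the cause of the lower count was not tested.

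Leaving out 1 library gave 9 to 147 loops (3 to 76 off chromosome 11) and 11 to 454 anchors (1 to 236). Of the anchors, 454 were called without B6 replicate 1, 11 without B6 replicate 2, 18 and 53 without D2 replicates 1 and 2, 201 and 33 without those of B6-13D2, and 31 and 18 without those of D2-13B6. Without B6 replicate 1 the adjusted p of 6 measures reached 0.0476. Over these fits the difference ran from -3.12 to -2.45 points for counts inside 1 anchor, 2.59 to 3.71 for spans of at least 100 kb, 1.21 to 1.98 for at least 500 kb, 1.00 to 1.32 for 1 gene start, -0.347 to 0.262 for 2 gene starts, where it reversed in 4 of 8 fits, and 12985 to 18319 different loops and 551 to 873 different anchors. Named anchors that reversed were all uncalled. These were chr11:58950001-58960000 (0.052, factor per chromosome), that of Dnmt3a (0.022 with library totals, -0.37 to 0.11 without single libraries) and that of Etv5 (0.026, trend removed). The cause was not tested. Depth ran from 737955 to 1425304 counts, and its effect on weak loops was not tested beyond the thinned fit.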
